A study of Mus musculus with 12 samples.

Results

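This report concerns a stretch of 2475 bases on mouse chromosome 17 (chr17:39846353-39848827, mm10) that carries ribosomal RNA sequence, and the clusters of PAR-CLIP reads placed on it. Its members were chosen by position: every cluster of the deposited list that overlapped this stretch on either strand, which gave 10 clusters of 4762. The stretch itself was selected on the high read counts already known for it, so its reads are given as a description with no test. Rows elsewhere in the list that shared a word of 30 bases with these 10, on either strand, were added by the same rule, and there were 10 of them.

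PAR-CLIP marks RNA in living cells with the nucleoside 4-thiouridine, fixes it to bound protein with long-wave ultraviolet light and sequences the RNA recovered with the protein of interest. The protein here was Smchd1, a chromatin protein of the SMC family that is known for its part in X inactivation and gene silencing. The cells were neural stem cells from female C57BL/6 embryos at E14.5. There were 12 libraries: 4 of Smchd1GFP/GFP cells, with a GFP tag on both alleles, 4 of Smchd1GFP/GFP cells titled as not crosslinked, and 4 of untagged Smchd1+/+ cells. All 3 groups had 100 µM 4-thiouridine over 24 hours. The protocol gives light of 365 nm at 0.15 J/cm2 for every library, including those titled as not crosslinked, and this conflict in the labels could not be settled. How many embryos the cells came from was not stated, so the 4 libraries of a group may not be from separate animals. The list holds 1 read count per cluster and no value per library, so no group could be compared with another, no value has a replicate error, and the identity of the cells could not be checked against marker levels. The sources used here do not say which libraries supplied the reads. The list summed to 553902 reads, with a median of 14 per cluster.

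Ribosomal RNA is made in the nucleolus as 1 long precursor that is cut into the RNAs of the small and large ribosomal subunits, with spacer sequence between and around them that is removed. The 18S RNA, first in the precursor after a leading external spacer, becomes the core of the small ribosomal subunit. Mature ribosomal RNA is the most abundant RNA class of a cell, and its genes lie in many near-identical repeats, so reads placed on an assembled copy can come from any of them. Small nucleolar RNAs of the C/D class guide methyl groups onto ribosomal RNA by pairing with it, and they are therefore complementary to the ribosomal strand.

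The annotation has 3 overlapping genes here. CT010467.1 (ENSMUSG00000106106.2), annotated as ribosomal RNA, covers the whole stretch on the minus strand, and its first transcript is a single exon of 1849 bases from 39846353 to 39848201. Gm42418 (ENSMUSG00000098178.1, 39846958 to 39848788) is a long non-coding RNA on the plus strand. AY036118 (ENSMUSG00000105361.1, 39847113 to 39848035) is a long non-coding RNA on the minus strand. RefSeq places Rn18s-rs5, an 18S-related sequence for which it lists Gm42418 as a synonym, over the same length, 39846354 to 39848202, shifted by 1 base. The 1849 bases of the CT010467.1 exon are called the 18S interval below, and positions are counted from 1 at base 39846353 along the plus strand.

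The strand that matches 18S RNA was the plus strand, opposite to the annotated strand of CT010467.1. Of 98 Snord genes, which encode C/D small nucleolar RNAs, 12 had a stretch of at least 13 bases complementary to the plus strand of the 18S interval and 0 had one complementary to the minus strand. The minimum of 13 was chosen after the values were seen: at 12 bases the counts were 16 and 15, and at 14 bases they were 9 and 0. The 12 genes paired with 9 distinct stretches, since the copies Snord14a, Snord14c, Snord14d and Snord14e share one. The longest pairings, and that of the Snord14 copies, were with these plus strand sequences of the 18S interval:
Snord57, 17 bases at chr17:39846446-39846462: ggctcattaaatcagtt
Snord45c, 16 bases at chr17:39846508-39846523: gtaattctagagctaa
Snord14a, 14 bases at chr17:39846817-39846830: acatccaaggaagg
The Snord57 and Snord45c stretches both lie inside the plus strand cluster printed next. A cluster listed on the minus strand is therefore described here as lying opposite to 18S RNA, whichever gene is annotated on that strand. The sources used here do not state whether a listed strand is that of the RNA or of its complement, so every such share takes the list's strands at their word.

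The following clusters are shown because they mark the 5′ part of the 18S interval on both strands, its 3′ end, and the spacer beyond it. In the first sequence capitals mark the GTAC at position 75, inside the cluster. Many exonic clusters of the list begin in the middle of this word, and this cluster begins in the middle of the one at position 62. In the last sequence capitals mark the bases that lie past the end of the 18S interval.
Plus, positions 64 to 173, chr17:39846416-39846525, 3931 reads: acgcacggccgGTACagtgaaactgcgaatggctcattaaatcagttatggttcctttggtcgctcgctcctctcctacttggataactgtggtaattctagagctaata
Minus, positions 88 to 172, chr17:39846440-39846524, 161 reads: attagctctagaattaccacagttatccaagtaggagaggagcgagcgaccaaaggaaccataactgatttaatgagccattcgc
Plus, positions 2147 to 2228, chr17:39848499-39848580, 58 reads: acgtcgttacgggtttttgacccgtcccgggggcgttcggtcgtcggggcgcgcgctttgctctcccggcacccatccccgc
Minus, positions 1776 to 1859, chr17:39848128-39848211, 32 reads: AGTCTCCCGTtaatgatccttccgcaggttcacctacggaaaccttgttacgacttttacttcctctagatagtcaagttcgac
All 10 clusters at the locus were equal, base for base, to the GENCODE sequence on their strand. The sources used here do not state whether a listed sequence comes from the reads or from the genome. This equality therefore says nothing about T-to-C changes in the reads, which could not be examined.

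The 10 clusters held 39541 reads, 7.14% of the list (Wilson 95% interval 7.07 to 7.21), and 83.6% of the reads on chromosome 17. This share was 2.60% without the cluster with the most reads at the locus, 12.9% with each distinct sequence of the list counted once, and 19.0% with each family of rows sharing a 30-base word counted once. All intervals given here reflect counting alone. Amplified reads can be copies of the same molecule, so the true uncertainty is larger. The reads per cluster ran from 32 to 25832, with a median of 1783. The nearest clusters outside the chosen stretch had 27 reads, 2816 bases before it, and 10 reads, 44569 bases after it, and neither shared a 20-base word with the locus. The one before it lay on the minus strand, opposite to Gm26917, the long non-coding RNA annotated just upstream of the 18S interval on the plus strand.

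Each strand had 5 clusters, and they differed widely in reads. On the plus strand, which matches 18S RNA, the cluster at positions 64 to 173 had 3931 reads, the one at 422 to 995 had 1750, the one at 1105 to 1480 had 1816, the one at 1544 to 1647 had 253 and the one at 2147 to 2228 had 58. On the minus strand the cluster at positions 88 to 172 had 161 reads, the one at 236 to 1058 had 25832, the one at 1067 to 1296 had 3466, the one at 1312 to 1464 had 2242 and the one at 1776 to 1859 had 32. The highest counts thus lay in the first 1480 bases on both strands, and the 3 clusters beyond had between 32 and 253 reads. The minus strand cluster of 25832 reads had the second highest count of all 4762 clusters, and the plus strand cluster of 3931 reads ranked 18. Per length these 2 were close, at 3139 and 3574 reads per 100 bases of cluster. The other 8 had between 38.1 and 1507 reads per 100 bases.

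**Figure D1:**
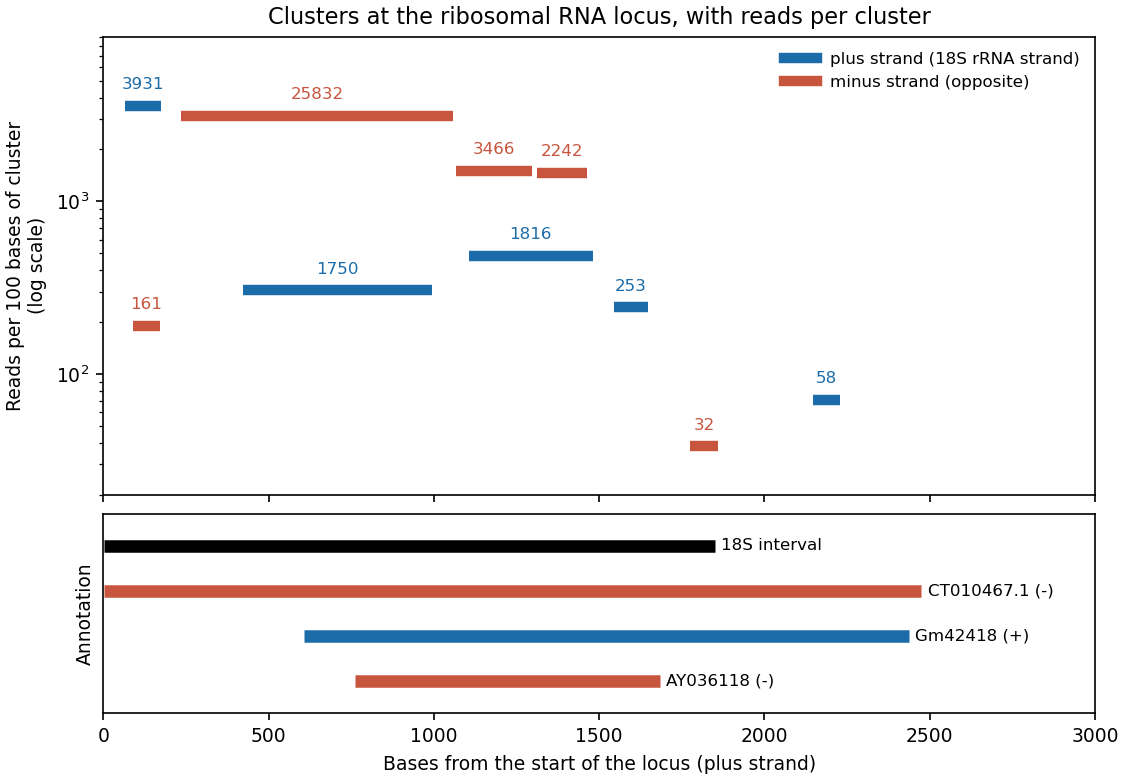
Clusters along the locus: the horizontal axis gives bases from its start on the plus strand, the vertical axis reads per 100 bases of cluster on a log scale, and each bar spans 1 cluster with its reads printed above it. The 18S interval and the 3 genes are drawn below in the colour of their strand. The plus strand leads at the left end with its cluster of 3931 reads. The minus strand clusters at positions 236 to 1058, 1067 to 1296 and 1312 to 1464 stand above the plus strand clusters they overlap.

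By the listed strand, 31733 of the 39541 reads lay opposite to 18S RNA (80.3%, Wilson 95% interval 79.9 to 80.6). If listed strands were the complement of the RNA, the opposite share would be 19.7%. The minus strand share rested on 1 cluster: the one at positions 236 to 1058 gave 81.4% of the minus strand reads, and without it the minus strand share was 43.0% (interval 42.2 to 43.9). Counted by clusters the strands were equal at 5 each, and by covered bases the minus strand had 52.5%.

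The strand with more reads changed along the 18S interval. Overlapping clusters of both strands formed 3 windows. From position 64 to 173 the plus strand had 3931 reads and the minus strand 161, so 96.1% matched 18S RNA (Wilson 95% interval 95.4 to 96.6), a ratio of 24.4. From 236 to 1058 the minus strand had 25832 reads and the plus strand 1750, so 93.7% lay opposite to it (interval 93.4 to 93.9), a ratio of 14.8. From 1067 to 1480 the minus strand had 5708 and the plus strand 1816, or 75.9% opposite (interval 74.9 to 76.8), a ratio of 3.14. The first window and the other two lay on opposite sides of an equal split, and their intervals did not overlap. Because a cluster has 1 count for its whole length, the ratio at a single base within a window is not known.

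In other parts of the list the same measure gave 66.7% of reads opposite to nuclear protein-coding exons (interval 65.9 to 67.5, 8768 of 13141 reads). For mitochondrial genes it gave between 54.2 and 55.9% opposite (the interval for 6869 of 12482 reads). Counted by clusters, the opposite share was 65.9% for the exons (276 of 419) and 41.8% for mitochondrial genes (28 of 67). The remaining clusters of the list are not in these shares. If the listed strand were inverted throughout, the first window and the other two would still fall on different sides.

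**Figure D2:**
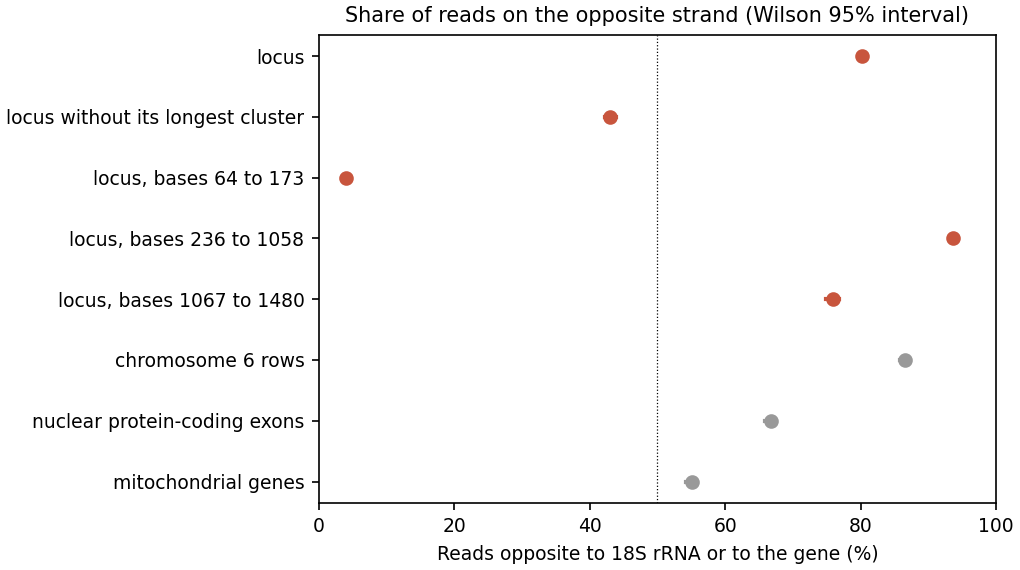
Percent of reads opposite to 18S RNA or, for the last 2 entries, to the annotated gene, with Wilson 95% intervals as lines that are mostly narrower than the points. The window from 64 to 173 stands at 3.93%, the next windows at 93.7% and 75.9%, and the locus without its longest cluster at 43.0%.

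The 3 genes overlap, and their counts depended on how clusters were assigned. With each cluster assigned by its midpoint to genes on its strand, CT010467.1 had 31733 reads in 5 clusters, Gm42418 had 3877 in 4 and AY036118 had 5708 in 2. The 2 clusters of AY036118, at 1067 to 1296 and 1312 to 1464, also lie in CT010467.1, so these gene counts cannot be added. The cluster of 25832 reads overlaps AY036118 by 298 bases while its midpoint lies outside. With any overlap on its strand AY036118 had 31540 reads in 3 clusters. Gm42418 kept 3877 reads under that rule. With overlap on either strand counted, the totals were 39541 for CT010467.1, 35449 for Gm42418 and 35359 for AY036118, so the order of the 2 long non-coding RNAs turned with the rule. The plus strand cluster of 3931 reads belonged to no gene on its own strand, since Gm42418 starts at position 606.

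The reads lay almost wholly inside the 18S interval. Clusters contained in it held 39451 of 39541 reads (99.8%, Wilson 95% interval 99.7 to 99.8). The minus strand cluster of 32 reads crossed its 3′ end by 10 bases. Only the plus strand cluster of 58 reads lay wholly in the sequence beyond, which in the ribosomal precursor is the first internal spacer. Within the 1849 bases of the interval, clusters covered 82.5% on either strand, 63.0% on the plus strand and 73.8% on the minus strand, and 54.3% on both. Of the 626 bases beyond it 14.7% were covered, and 0 bases on both strands. Reads of the spacer were thus few in this list, and any below the calling threshold, which the sources used here do not state, cannot be seen.

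On neither strand was there a cluster in 7 stretches. They lay at positions 1 to 63, 174 to 235, 1059 to 1066, 1481 to 1543, 1648 to 1775, 1860 to 2146 and 2229 to 2475. Their lengths were 63, 62, 8, 63, 128, 287 and 247 bases. The first, at the 5′ end of the 18S interval, had 42.9% G and C. The second, between the window with mostly plus strand reads and the window with mostly minus strand reads, had 69.4% G and C and a run of 14 identical bases. Over the 18S interval as a whole this content was 55.4%. The spacer stretch of 287 bases had 72.1%. For the last stretch the sequence past position 2436 was not analysed here.

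Clusters at the locus were long, as were the related 18S rows elsewhere. The minus strand cluster at 236 to 1058 spanned 823 bases and was the longest of the 4762, and the plus strand cluster at 422 to 995, with 574 bases, was the second longest. The plus strand cluster at 1105 to 1480 had 376 bases and the minus strand cluster at 1067 to 1296 had 230. These 4 were among 12 in the list of 200 bases or more. Of the 10 clusters here 7 were longer than 86 bases, and their median was 132 bases. Of the 10 related rows on chromosomes 6 and 1, 8 were longer than 86 bases, and their median was 119. Of the remaining 4742 clusters 110 were (2.32%, Wilson 95% interval 1.93 to 2.79). The length was therefore shared by rows of 18S sequence at both places. The 3 clusters at the locus of 82 to 85 bases were those with 32, 58 and 161 reads, the lowest counts at the locus. The sources used here do not state how reads were joined into clusters.

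**Figure D3:**
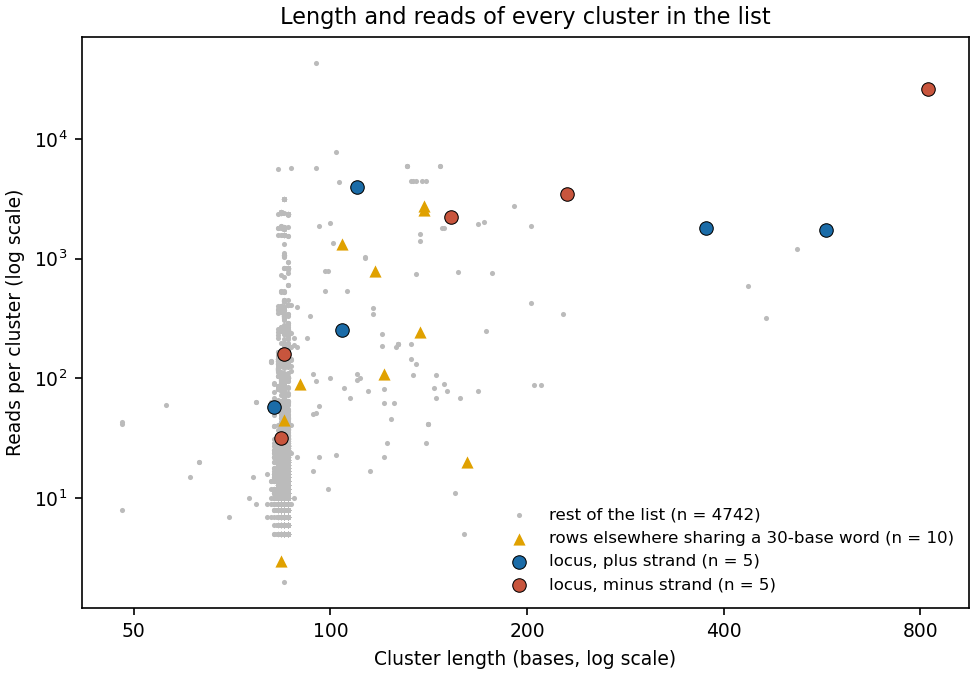
Length of each cluster in bases against its reads, both on log scales, for all 4762 clusters. The locus clusters are large circles in the colour of their strand and triangles are rows elsewhere that share a 30-base word. Most of the list stands in a column near 85 bases, while 4 locus clusters lie between 230 and 823 bases.

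The longest cluster begins, on the minus strand, with the first sequence below and ends with the second. The third is the whole minus strand cluster that follows it along the locus. They are shown because they hold most of the reads opposite to 18S RNA.
First 60 bases, chr17:39847351-39847410: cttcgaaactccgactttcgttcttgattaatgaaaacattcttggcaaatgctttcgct
Last 60 bases, chr17:39846588-39846647: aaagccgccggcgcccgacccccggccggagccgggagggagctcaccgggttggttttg
Minus, positions 1067 to 1296, chr17:39847419-39847648, 3466 reads: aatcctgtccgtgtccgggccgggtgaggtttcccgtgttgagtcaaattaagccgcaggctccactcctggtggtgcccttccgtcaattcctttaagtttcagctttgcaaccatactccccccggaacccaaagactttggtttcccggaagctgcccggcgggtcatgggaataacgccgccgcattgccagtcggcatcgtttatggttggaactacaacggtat
None of these 3 sequences holds GTAC.

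Cluster starts at the locus and in the related rows mostly lacked the sequence common in the rest of the list. Of the 10 clusters 4 began with AC (Wilson 95% interval for the share 16.8 to 68.7%), and 0 of the 10 related rows did so, against 3754 of the remaining 4742 (79.2%, interval 78.0 to 80.3). In 2 of the 10 at the locus, both on the plus strand, the start fell between GT and AC of a GTAC word (interval 5.67 to 51.0%). Among 569 other clusters inside an annotated exon on either strand, with known bases on both sides, 356 did so (62.6%, interval 58.5 to 66.4). No end fell at this word in either set. For the 569 clusters a count of 0 allows a share of up to 0.527%, and 10 clusters are too few to limit the share usefully. The 2 starts at the locus are shown with 8 bases before them, GTAC in capitals.
Start of the cluster with 3931 reads, chr17:39846408-39846429: gtctaaGTACgcacggccggta
Start of the cluster with 58 reads, chr17:39848491-39848512: ggggcgGTACgtcgttacgggt
The 2436 bases of plus strand sequence held this word at 5 places, positions 62, 75, 1700, 2145 and 2360. The one at 75 lay inside the cluster of 3931 reads and those at 1700 and 2360 lay where no cluster was listed. A cluster beginning past the word at 75 and before that at 1700 had no such word to start at. The words available to the 569 other clusters were not counted, so the shares may not be alike in this. The 4 longest clusters at the locus held 0 copies of the word and began at none.

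The 10 clusters elsewhere that shared a 30-base word with the locus lay 9 on chromosome 6 and 1 on chromosome 1. Together they had 7939 reads. Each was again 18S sequence, and GENCODE lists no gene at their midpoints. The count was 10 with words of 20, 25 or 40 bases as well, and with words of the annotated transcripts in place of the clusters. The 9 on chromosome 6 lay within 776 bases (chr6:3200762-3201537) and matched positions 329 to 1096 of the locus in the same order, as a partial copy of the 18S interval. The row on chromosome 1, with 89 reads, matched positions 1306 to 1395.

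On chromosome 6, 4 rows had the orientation of 18S RNA and 5 the opposite one. Those matching 18S RNA had 3, 790, 242 and 20 reads in order along the locus. Those opposite had 2767, 2541, 1334, 45 and 108 reads. The highest counts fell at matching positions 410 to 846 in the opposite orientation, all of which lie inside the cluster of 25832 reads on chromosome 17. Opposite reads made up 86.6% on chromosome 6 (Wilson 95% interval 85.8 to 87.3, 6795 of 7850 reads), compared with 93.7% in the window of positions 236 to 1058 at the locus. The copies are not independent of the locus, because 7 of the 9 rows held a stretch of 83 bases or more that is equal at both places. The sources used here do not state whether a read that matches both was counted once or at each place.

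**Figure D4:**
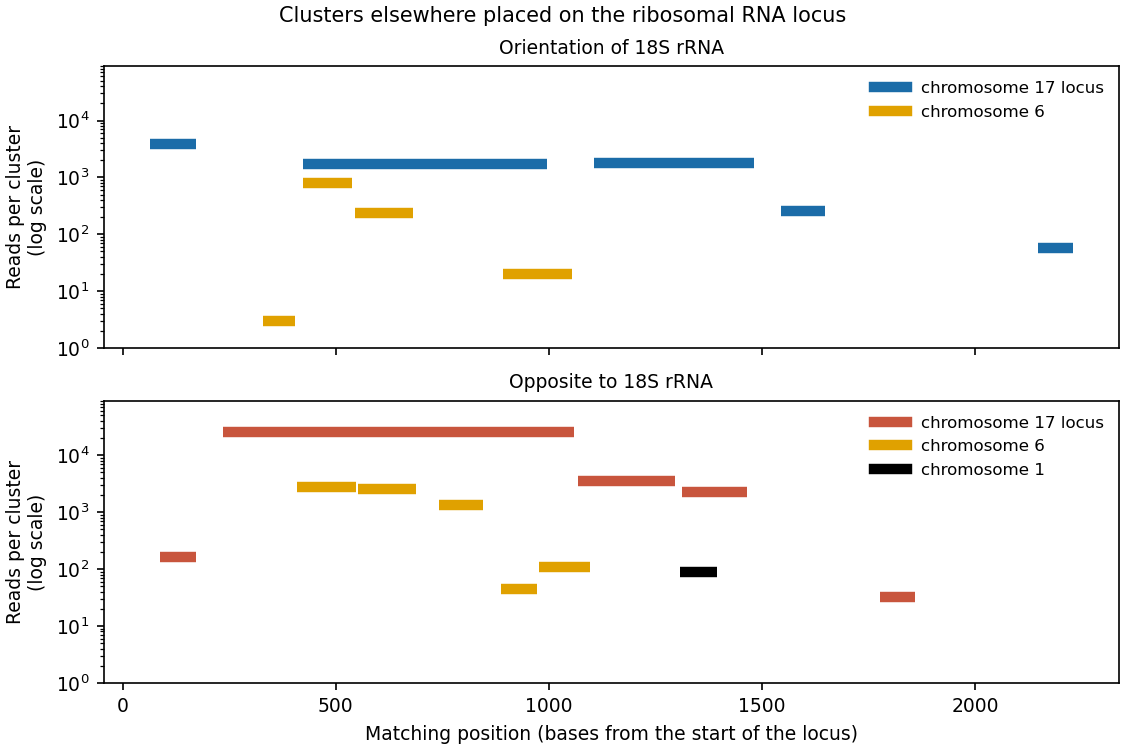
Rows on chromosomes 6 and 1 placed at the position of the locus they match, with reads per cluster on a log scale, in the orientation of 18S RNA (top) and opposite to it (bottom). Chromosome 6 rows run from 3 to 2767 reads, with the 3 highest opposite to 18S RNA.

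The rows that held most reads on chromosome 6 were identical to the locus. The row with 2767 reads, on the minus strand, is printed to show this, and its 139 bases are the same at chr17:39846762-39846900.
Chromosome 6, minus, chr6:3200851-3200989, 2767 reads: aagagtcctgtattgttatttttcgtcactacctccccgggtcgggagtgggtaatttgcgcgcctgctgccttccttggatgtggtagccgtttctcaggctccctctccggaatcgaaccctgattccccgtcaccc
Rows with 790, 2541, 1334 and 45 reads were likewise identical over their length. The other 4 rows on chromosome 6 differed at 1 to 6 bases. The row of 108 reads and the row on chromosome 1 are shown with the locus over the same positions, differences in capitals, because their listed sequences differ there. Most of these differences are between T and C or between A and G, and T-to-C changes in the reads could not be examined. Whether reads can be assigned to a copy by these bases was not tested.
Chromosome 6, minus, chr6:3201417-3201537, 108 reads: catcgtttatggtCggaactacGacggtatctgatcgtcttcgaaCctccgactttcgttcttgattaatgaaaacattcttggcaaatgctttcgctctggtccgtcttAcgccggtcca
Locus, minus, chr17:39847328-39847448: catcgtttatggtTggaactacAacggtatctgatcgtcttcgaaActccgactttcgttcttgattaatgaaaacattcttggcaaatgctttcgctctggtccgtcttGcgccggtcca
Chromosome 1, plus, chr1:56782254-56782343, 89 reads: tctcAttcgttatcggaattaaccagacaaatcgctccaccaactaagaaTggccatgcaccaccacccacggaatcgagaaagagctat
Locus, minus, chr17:39847658-39847747: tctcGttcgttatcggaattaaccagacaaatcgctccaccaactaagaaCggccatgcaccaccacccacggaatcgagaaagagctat
The first pair differed at 4 of 121 bases and the second at 2 of 90. The 5 identical rows had 45 to 2767 reads and the 5 that differed had 3 to 242.

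With the locus and its related rows together, 47480 listed reads, 8.57% of the list (Wilson 95% interval 8.50 to 8.65), fell on 18S sequence. By the listed strand 81.3% of them lay opposite to 18S RNA, or 18.7% if listed strands were the complement of the RNA. Reads that match both places may have been counted at each, so this total may hold some reads more than once. The interval does not reflect this.

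Other genes of ribosome production had clusters at about the share of all genes or below it. Over all annotated genes 1.89% had a cluster on their strand, and over protein-coding genes 3.69%. With either strand counted these shares were 3.53% and 6.89%. Of 356 genes annotated as ribosomal RNA or its pseudogenes 4 had one: CT010467.1, the mitochondrial 12S and 16S RNAs mt-Rnr1 (2063 reads on its strand, 4510 with both strands counted) and mt-Rnr2 (425 and 2260 reads), and the 5S gene n-R5s193 (61 reads). CT010467.1 is there by the choice of the locus. RefSeq lists 65 ribosomal RNA genes with a position, and 0 of them overlapped a cluster. This 0 holds only for those RefSeq entries as matched here, since the 4 GENCODE genes above had clusters. Whether the 65 include any of those 4 genes was not examined. Of 161 small RNAs of ribosomal RNA processing, which include the Snord genes and the Snora genes that guide pseudouridine, 0 had a cluster, which allows a share of up to 1.86%. Of 19 RNA polymerase I subunits and factors 0 had one on their strand (up to 15.8%), with 23 reads opposite to the topoisomerase gene Top1. Of 30 nucleolar processing factors 1 had one, Ncl, which encodes nucleolin, with 10 reads, and 197 with both strands counted. Of 85 cytoplasmic ribosomal protein genes 1 had one, Rps19, with 12 reads. With either strand counted, 1 polymerase factor, 2 processing factors and 2 ribosomal protein genes had a cluster. These counts give no result about the lists, and expression of their genes was not measured.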

How the data were processed

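PAR-CLIP libraries were 12 in 3 groups of 4, by the titles. The authors deposited a raw read count for each cluster, in 1 column whose name holds no sample. The name of the list carries Smchd1GFP, while the description of every sample names the list. Whether the untagged libraries and those titled as not crosslinked are in the counts is therefore not known. The submitters' processing notes name mm10, bcl2fastq and TopHat2 (version 2.1.0). The sources used here do not name the cluster caller or its thresholds. The planned edgeR test was not run because the list has no counts per library, and the number of per-sample columns is 0. Depth per library is therefore unknown.

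Starts were read as 1-based. Annotation and sequence came from GENCODE M21 (GRCm38, the assembly of mm10) and, for Rn18s-rs5 and ribosomal RNA names, RefSeq GRCm38.p6. A cluster was assigned to genes by its midpoint. Related rows were aligned locally (Biopython 1.88, match 1, mismatch -1, gap open -3, extension -1). Shares have Wilson 95% intervals (statsmodels 0.14.6). Limits for a count of 0 use 3 counts. The search for shared words was tested on simulated data. The members and gene lists were chosen with earlier results of these data known. Named genes were the 3 genes here and, per list, up to 6 members with a cluster by reads. Gene lists were 5. Alternatives were the overlap rule, coordinate base, counting of repeated sequences, left-out clusters, word length and strand.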

Additional observations from a re-analysis of the deposited data

How the results depend on the processing

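No paired analysis was possible because no cluster has a count for each library, and for the same reason no replicate could be left out. The 10 clusters at the locus were found under both alternative readings of position, and the 10 related rows were found with words of 20, 25 and 40 bases and of whole transcripts, while 9 shared a word in the listed orientation alone. The locus share of reads, 7.14%, became 12.9% with each distinct sequence counted once, 19.0% with each family counted once, 7.74% without the cluster with the most reads of the list and 2.60% without the one with the most at the locus. The minus strand share of reads, 80.3%, became 43.0% without that cluster, which turned it below an equal split, 50% by clusters and 52.5% by bases covered. The covered share of bases, 65.3%, was 50.3% on the plus and 55.6% on the minus strand alone. Cluster boundaries at GTAC numbered 2 within 0 and within 2 bases. Counted on either strand with any overlap, reads of Gm42418 became 35449 and of AY036118 35359. Depth per library is unknown, so the shares carry counting error only, and reads at a single base are not known.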

Other observations

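The bases of the clusters were counted because 4-thiouridine is taken up in place of uridine, which the list writes as T. Locus clusters on the plus strand were 22.0% T and those on the minus strand 23.3%, with 56.3% and 54.8% G and C. The 18S interval on the plus strand had 21.9% T, 22.7% A (T on the minus strand) and 55.4% G and C, so the clusters were close to the sequence they cover. The whole list had 31.3% T and 41.6% G and C. Between the 10 clusters T ran from 18.3% at positions 1312 to 1464 to 32.1% at 1776 to 1859, the cluster with the fewest reads, and was 23.0% in the minus strand cluster of 25832 reads. Related rows on chromosomes 6 and 1 had 24.3% T.

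On the rest of chromosome 17, 19.6% of 7774 reads lay on the minus strand, against 57.3% of all reads of the list.

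Of the 12 Snord genes with a long stretch complementary to 18S RNA, Snord13, Snord59a and Snord45b paired where no plus strand cluster covered the whole stretch. The stretches of the other 9 lay inside a plus strand cluster, but the Snord14 copies among them share a stretch. All stretches except that of Snord45b also lay inside a minus strand cluster. Plus strand clusters covered 63.0% of the 18S interval and minus strand clusters 73.8%, so these counts give no result about the pairing sites. None of the 12 genes had a cluster of its own.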
